A study of Rattus norvegicus with 6 samples.

Results

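The comparison described here set kidney inner medulla taken 3 h after the end of an infusion of dDAVP against inner medulla of rats that had received vehicle and never dDAVP. It used 4 of the 6 arrays of the study, 2 labelled withdrawal and 2 labelled vehicle, and it was made across 14168 genes, 1 probe set for each gene with a single symbol. dDAVP (desmopressin) is a synthetic vasopressin analogue that acts mainly on the V2 receptor. All rats were male Sprague-Dawley rats given a fixed ration of food and free access to water. In vehicle rats an osmotic minipump in the neck delivered saline subcutaneously, 1 µl/h over 5 d. Withdrawal rats received dDAVP at 40 ng/h by the same route for 5 d. Their pump was then taken out under light enflurane inhalation, and they woke and stayed in metabolic cages for 3 h. The study's remaining group, dDAVP, had the same infusion with no withdrawal, and its 2 arrays are given beside the others for orientation. The 5 d of dDAVP, the end of the infusion, the anaesthesia and the operation cannot be told apart in this comparison, because all of them separate withdrawal from vehicle. The labels do not say whether the arrays of a group came from separate rats, so p-values measure only the spread between arrays.

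Vasopressin is the hormone that lets the kidney save water. In principal cells of the collecting duct it binds the V2 receptor, which raises cyclic AMP and activates protein kinase A. The kinase brings the water channel aquaporin-2 and urea transporters of the UT-A type to the membrane and increases transcription of the aquaporin-2 gene. The inner medulla also holds thin limbs, vasa recta, interstitial cells and resident immune cells, and its cells gather osmolytes against the salty surroundings. In such bulk tissue, fewer cells of a type and less RNA per cell cannot be told apart.

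The 6 arrays did not fall simply into their groups. Median intensities were 182.1 and 174.6 on the vehicle arrays, 156.1 and 165.1 on the dDAVP arrays, and 181.8 and 181.1 on the withdrawal arrays. Vehicle replicate 2 and withdrawal replicate 1 were the closest of the 15 pairs of arrays: 60 genes (0.424%) differed by 1.5-fold or more between them. The vehicle arrays themselves differed by that much at 482 genes (3.40%), and the withdrawal arrays at 324 (2.29%). By this count vehicle replicate 1 lay closest to dDAVP replicate 2, with 110 genes (0.776%), and farther from withdrawal replicates 1 and 2, with 523 and 780 genes. By the median absolute log2 difference over all genes, vehicle replicate 1 was instead nearer to withdrawal replicates 1 and 2 (0.112 and 0.125) than to dDAVP replicate 2 (0.144). By that measure its difference from vehicle replicate 2 was 0.146. By the Pearson correlation over all genes vehicle replicate 1 was again closest to dDAVP replicate 2, at 0.9943. It correlated at 0.9874 with vehicle replicate 2 and at 0.9859 and 0.9819 with withdrawal replicates 1 and 2. The closest array to vehicle replicate 1 was therefore dDAVP replicate 2 by the count and the correlation, but not by the median absolute difference. The values of single arrays are given throughout.

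**Figure D1:**
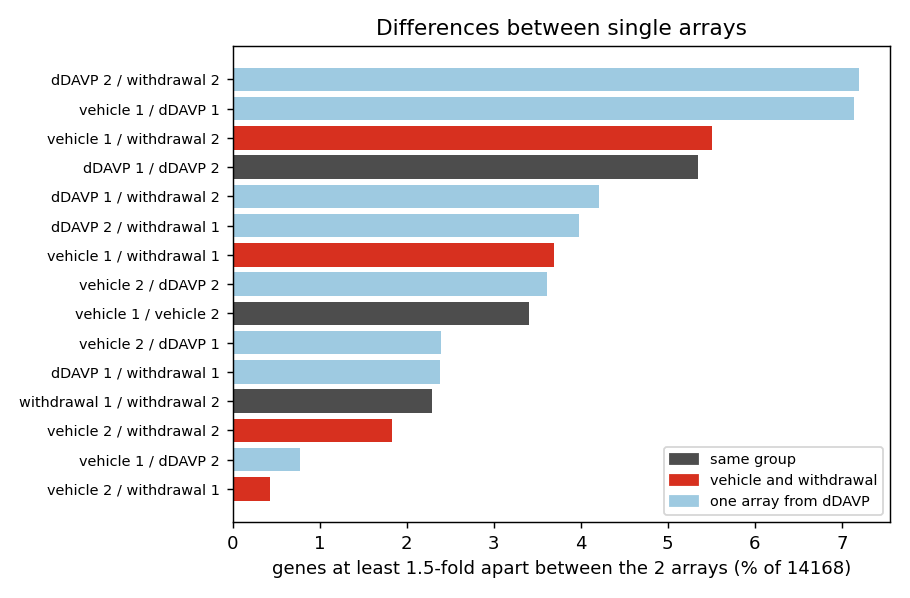
Share of the 14168 genes that differed by 1.5-fold or more between 2 arrays (x axis, percent), for each of the 15 pairs (y axis). Bars are coloured by whether the arrays belong to the same group, to vehicle and withdrawal, or include an array from dDAVP. Vehicle replicate 2 and withdrawal replicate 1 have the shortest bar, at 0.424%, below both pairs of replicates of those groups, at 3.40% and 2.29%.

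No gene passed the test. In limma fitted to all 6 arrays, 0 of 14168 genes (0%) had a Benjamini-Hochberg adjusted p under 0.05, and the smallest adjusted p was 0.995. Unadjusted p was under 0.05 for 253 genes (1.79%), of which 91 (0.642%) were higher in withdrawal and 162 (1.14%) lower, where 708.4 would be expected if no gene differed. The fits of the other contrasts, which share these arrays, had 1051 such genes for dDAVP against vehicle and 2686 for withdrawal against dDAVP. The count rested on single arrays: it was 665 without vehicle replicate 2, 608 without withdrawal replicate 1, 117 without withdrawal replicate 2, and 411 without either dDAVP array.

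Differences are log2 intensity of withdrawal minus vehicle, ± the moderated standard error, with 2 arrays against 2. Over all genes the median difference was 0.03 and the median standard error 0.12. The difference was above 0 for 59.5% of genes and below 0 for 40.5%. It was at least 1.5-fold upward for 92 genes (0.649%) and downward for 60 (0.423%), and with an unadjusted p under 0.05 as well for 9 (0.0635%) and 21 (0.148%). Both withdrawal arrays lay above both vehicle arrays at 17.6% of genes and below them at 13.1%, or 30.7% in all. This background leaned upward among dim genes: 27.3% of the 4723 dimmest genes lay without overlap above vehicle, 16.2% of the 4722 in the middle and 9.25% of the 4723 brightest. After cyclic loess between the arrays the shares were 17.3%, 15.5% and 15.5%, so counts for several lists are given in both forms.

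The transport genes through which vasopressin acts were near their vehicle values. Aqp2, the vasopressin-regulated water channel, measured 13.16 and 13.23 log2 intensity on the vehicle arrays, 13.40 and 13.30 on the dDAVP arrays and 13.23 and 13.14 on the withdrawal arrays, a difference of -0.01 ± 0.10 (95% interval -0.24 to 0.22). Withdrawal and vehicle overlapped, and Aqp2 had the brightest probe set of the vehicle arrays, ahead of S100a10, Mt2A, Ldha and Actg1, an order of signal and not of RNA amount. Avpr2, the V2 receptor, measured 11.59 and 11.32 with vehicle and 11.45 and 11.04 after withdrawal, and Aqp4, the basolateral exit channel for water, 11.30 and 11.90 and 11.87 and 11.59. Slc14a2, which encodes the UT-A urea transporters of the collecting duct and thin limb, differed by 0.24 ± 0.30 (95% interval -0.48 to 0.96). Both vehicle arrays enclosed the withdrawal arrays for Slc14a2, at 11.79 and 12.55 against 12.52 and 12.30.

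A urea transporter of blood vessels was lower. Slc14a1, the UT-B urea transporter of the descending vasa recta and red cells, measured 10.02 and 9.40 on the vehicle arrays, 10.06 and 9.95 on the dDAVP arrays and 9.34 and 8.64 on the withdrawal arrays, a difference of -0.72 ± 0.28 (unadjusted p = 0.0413). Both withdrawal arrays were below the other 4, although withdrawal replicate 1 missed vehicle replicate 2 by little, and after loess the groups overlapped. Of the 13 genes listed for water and urea transport 11 were measured, and their median difference was 0.04. None lay without overlap above vehicle (background 17.6%) and 2 lay below (18.2%, background 13.1%). The 2 were Slc14a1 and Aqp7, an aquaglyceroporin that differed by -0.14 ± 0.13. Aqp1 and Aqp3 were not analysed here.

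Sodium transport and osmolyte genes gave medians close to 0. The subunits of the epithelial sodium channel differed by -0.08 ± 0.16 (Scnn1a), 0.08 ± 0.17 (Scnn1b) and 0.11 ± 0.14 (Scnn1g), and Sgk1, the kinase that raises channel activity, by 0.03 ± 0.20. Over 21 genes of the channel and its regulators the median was -0.02. Without overlap 0 members were above vehicle (background 17.6%) and 4 below (19.05%, background 13.1%). Those below included Nedd4 (a ubiquitin ligase related to the one that removes the channel from the membrane) at -0.23 ± 0.09, Nr3c2 (the mineralocorticoid receptor) at -0.27 ± 0.15 and Nr3c1 (the glucocorticoid receptor) at -0.15 ± 0.10. Nfat5, the transcription factor of the response to high salt, measured 9.82 and 9.60 with vehicle, 8.88 and 9.38 with dDAVP and 9.52 and 9.40 after withdrawal, a difference of -0.25 ± 0.18 from vehicle. Its withdrawal arrays were below the vehicle arrays and above those of dDAVP. Its known targets did not share a direction: Akr1b1 (aldose reductase, which makes sorbitol) differed by -0.05 ± 0.10, Slc5a3 (the myo-inositol carrier) by 0.26 ± 0.22 and Slc6a6 (the taurine carrier) by -0.40 ± 0.15. Across the 13 osmolyte genes measured the median was -0.03, 0 were above vehicle without overlap (background 17.6%) and 3 below (23.1%, background 13.1%).

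Components of cyclic AMP signalling were also near 0 as a group, with a median of 0.01 over 39 genes. Without overlap 2 were above vehicle (5.13%, background 17.6%) and 5 below (12.8%, background 13.1%). Pde10a, a phosphodiesterase that breaks cyclic AMP and cyclic GMP down, measured 7.49 and 7.68 with vehicle and 7.87 and 7.91 after withdrawal, a difference of 0.31 ± 0.12, and both withdrawal arrays were above all 4 others. Adcy6, the adenylyl cyclase on which V2 signalling in the collecting duct largely depends, measured 8.95 and 8.91 and 8.77 and 8.56, a difference of -0.27 ± 0.11. Prkacb, a catalytic subunit of protein kinase A, measured 9.32 and 9.30 and 9.17 and 8.89, and a dimmer probe set of Prkacb differed by -0.07. Withdrawal was below all other arrays for Adcy6 and Prkacb.

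**Figure D2:**
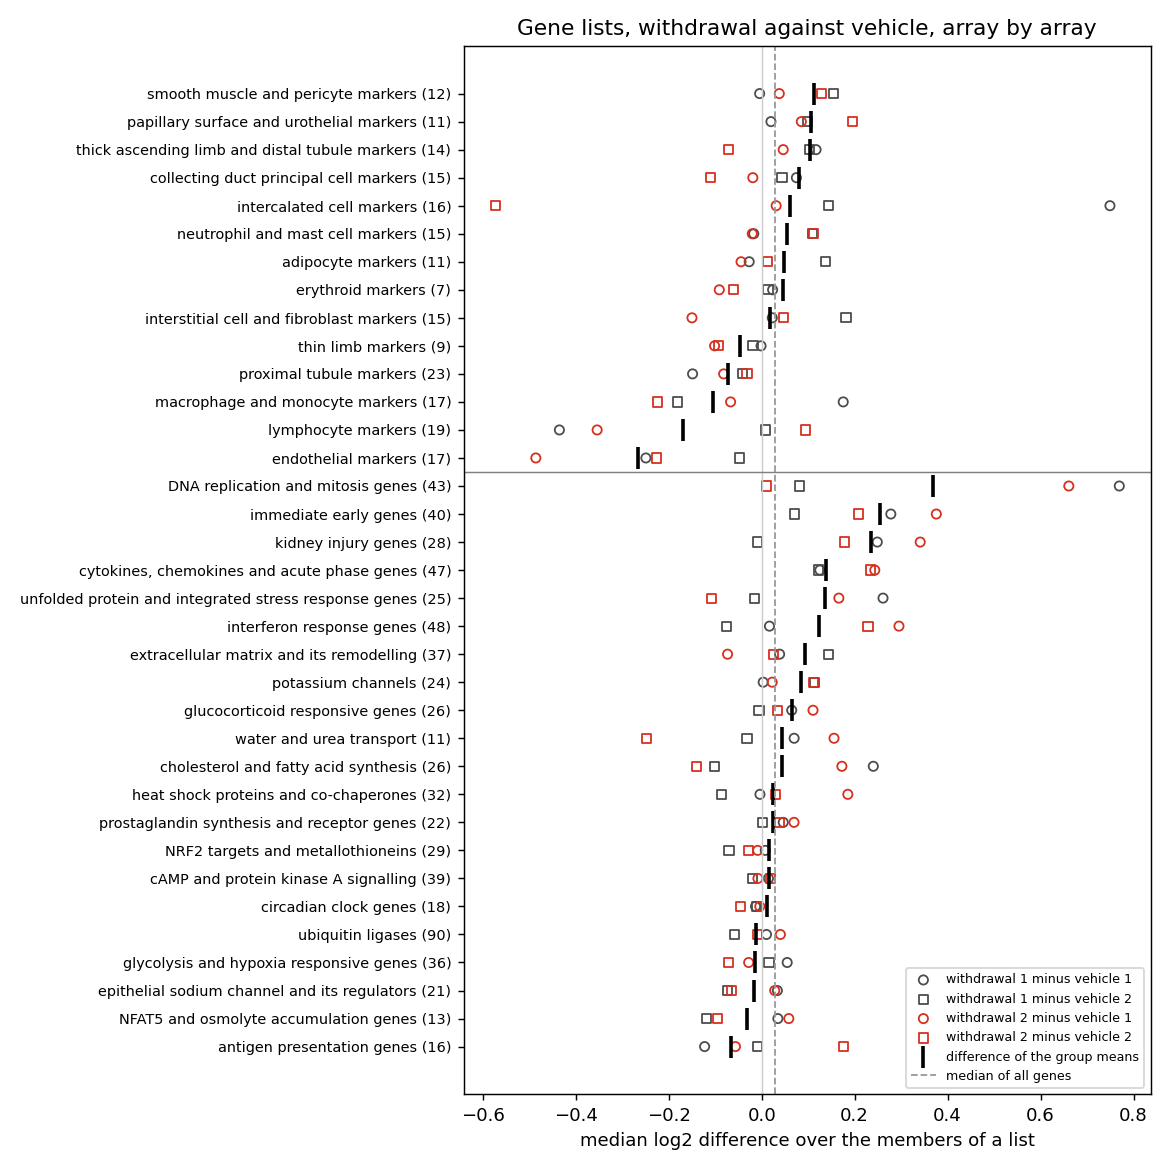
Median log2 difference over the measured members of each gene list (x axis), with markers of cell types above the line and lists of function below it; the number of members is in brackets. Circles and squares compare single arrays, the thick bar is the difference of the group means and the dashed line the median of all genes, 0.03. Immediate early genes and cytokines lie to the right and endothelial markers to the left for all 4 pairs of arrays, whereas the mitosis list is at 0.66 and 0.77 against vehicle replicate 1 and at 0.01 and 0.08 against vehicle replicate 2.

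Among single genes, 51 (0.36%) were at least 1.5-fold higher without overlap and 48 (0.339%) at least 1.5-fold lower. The 12 of each direction with the smallest unadjusted p are described next. They were picked for their separation, so their folds are a description. The 12 higher genes ranged from 1.51-fold to 2.25-fold, with unadjusted p of 0.00397 to 0.0602. For 8 of them both withdrawal arrays were also above both dDAVP arrays. Of all genes, 2492 (17.6%) lay above both vehicle arrays without overlap, and 2082 (14.7%) above the dDAVP arrays as well.

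Fmo5, a flavin-containing monooxygenase, measured 7.44 and 7.54 on the vehicle arrays, 8.0 and 8.73 on the dDAVP arrays and 8.56 and 8.45 on the withdrawal arrays. It was higher than vehicle in both dDAVP and withdrawal, 2.02-fold in withdrawal (1.01 ± 0.23, unadjusted p = 0.00397). Zmym6, a zinc finger protein, had the same order, with 8.57 and 8.32, 8.72 and 9.40 and 9.36 and 9.34, but a dimmer probe set of the gene differed by -0.04. Postn and Csf3 differed from that pattern, because their dDAVP arrays were at vehicle levels. Postn, the matrix protein periostin, measured 6.87 and 7.09, 7.02 and 6.68 and 7.60 and 7.55, a difference of 0.59 ± 0.14 (95% interval 0.25 to 0.94). Csf3, granulocyte colony-stimulating factor, measured 6.94 and 7.58, 7.37 and 7.03 and 8.03 and 8.07, a difference of 0.79 ± 0.22. In both genes the withdrawal arrays were close together and above all others. The remaining higher genes were separated from vehicle replicate 2 by less. Adamts1, a secreted protease that cuts proteoglycans, measured 7.99 and 8.28 with vehicle and 8.55 and 9.03 after withdrawal. Prl3b1, a placental member of the prolactin family, was flat at 6.57 and 6.61 and 6.58 and 6.50 before withdrawal and at 6.92 and 7.69 after it. Noct (nocturnin, a phosphatase with a daily rhythm), Phlda1 (a pleckstrin-homology domain protein), Tubb6 (a beta-tubulin) and Nabp1 (a single-stranded DNA-binding protein) differed by 0.80 ± 0.30, 0.81 ± 0.32, 1.04 ± 0.44 and 0.72 ± 0.31. Pclaf, a partner of the replication clamp PCNA, measured 7.49 and 8.496 with vehicle, 7.90 and 7.09 with dDAVP and 8.80 and 9.18 after withdrawal. For Noct, Phlda1, Tubb6, Nabp1 and Pclaf vehicle replicate 1 was lower than vehicle replicate 2, which lay nearer to withdrawal.

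The 12 lower genes ranged from 1.51-fold to 2.22-fold, with unadjusted p of 0.00115 to 0.0308. For 7 of them both withdrawal arrays were also below both dDAVP arrays. Of all genes, 1851 (13.1%) lay below both vehicle arrays without overlap, and 551 (3.89%) below the dDAVP arrays as well. Cryz, a quinone reductase, had the smallest p of all genes: it measured 9.94 and 10.11 with vehicle, 9.97 and 9.82 with dDAVP and 9.43 and 9.41 after withdrawal, a difference of -0.60 ± 0.11 (95% interval -0.86 to -0.34). The 4 arrays before withdrawal lay together and the withdrawal arrays below them. Cyp4a3, which hydroxylates fatty acids including arachidonic acid, measured 9.05 and 8.81, 8.56 and 8.87 and 8.31 and 8.09, a difference of -0.73 ± 0.15. Several more of the lower genes encode oxidative enzymes or amino acid carriers that are abundant in the proximal tubule. Fmo1 (a flavin-containing monooxygenase) differed by -0.68 ± 0.14, Hao2 (a peroxisomal oxidase of hydroxy acids) by -0.59 ± 0.15, Slc3a1 (a subunit of the cystine carrier) by -0.74 ± 0.25 and Slc7a12 (an amino acid carrier) by -0.75 ± 0.22. In Fmo1, Hao2 and Slc3a1 dDAVP replicate 1 lay between the withdrawal arrays. Dhrs7l1, a dehydrogenase, differed by -0.76 ± 0.26, and Nrep, a neuronal regeneration-related protein, by -0.79 ± 0.28. Wfdc10a, a small protein with a whey acidic protein domain, measured 10.10 and 11.07 with vehicle, 10.85 and 11.48 with dDAVP and 9.79 and 9.08 after withdrawal. Its withdrawal arrays were below all 4 others, and its difference from vehicle was -1.15 ± 0.39. Erg, Ccl6 and Cd3g, genes of endothelium, myeloid cells and T cells, complete the 12 and are described with their cell types.

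**Figure D3:**
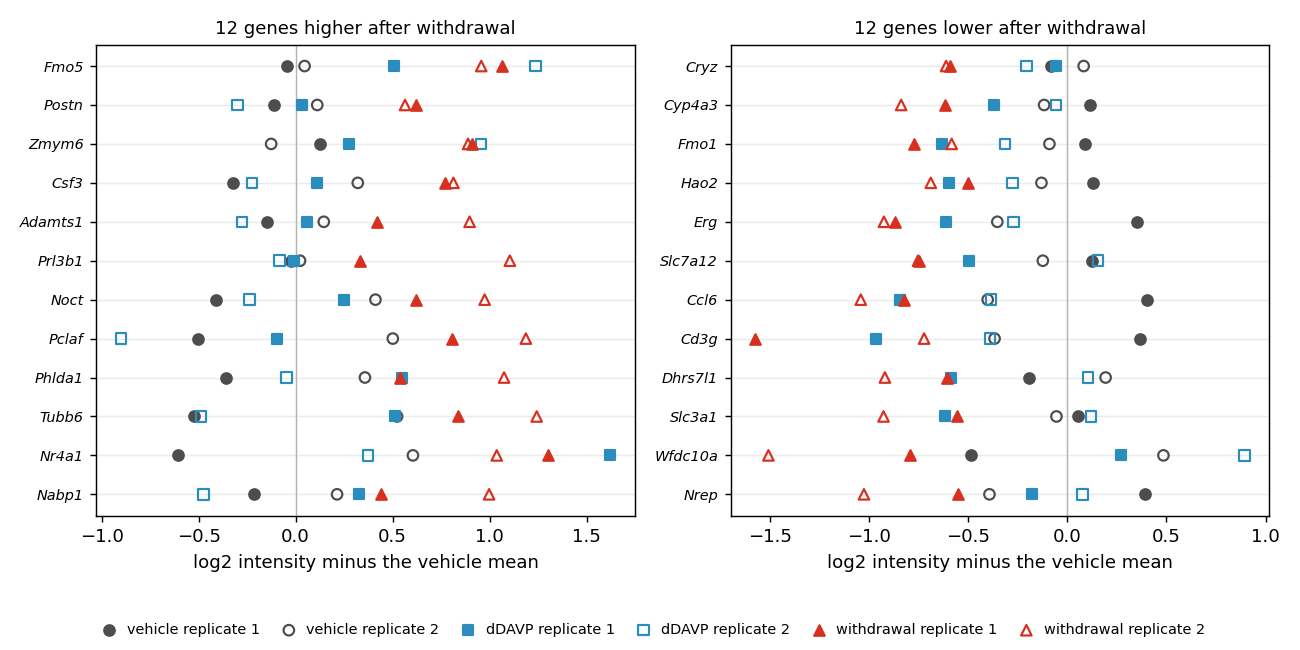
Log2 intensity minus the vehicle mean (x axis) on each of the 6 arrays for the 12 higher and the 12 lower genes (y axis). Circles are vehicle, squares dDAVP and triangles withdrawal, filled for replicate 1 and open for replicate 2. The triangles do not overlap the circles in any gene, since the genes were chosen so, and in Cryz, Cyp4a3, Postn and Csf3 they are apart from the squares too.

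Immediate early genes, which are transcribed within minutes of a stimulus without new protein, were mostly above vehicle. Of 40 measured, 35 had a difference above 0 and 5 below, with a median of 0.25 (0.26 after loess) against 0.03 over all genes. Without overlap, 18 were above vehicle (45%, where the background was 17.6%) and 1 below. At an unadjusted p under 0.05 there were 2 higher and 0 lower, against 0.642% and 1.14% of all genes. Leaving out vehicle replicate 1 lowered the median to 0.16, still with 35 of 40 above 0. The median of dDAVP minus vehicle over the same genes was 0.02.

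Several of these genes are classical targets of cyclic AMP or of growth factor signals, and RefSeq promoters (assembly GRCr8) were searched for response elements. Promoters here ran from 250 bases before to 50 after the annotated start. The search covered 4 patterns of letters on both strands: the cyclic AMP response element TGACGTCA, its core TGACG (which also lies inside TGACGTCA), the serum response element, and the core of the interferon-stimulated response element. For 28 of the 40 immediate early genes 30 promoters were found, of which 16.7% held TGACGTCA, 56.7% TGACG and 16.7% a serum response element. The shares were 2.47%, 26.2% and 1.31% among the 12251 promoters found for the genes tested, and 1.83%, 21.2% and 1.64% among all 33469 promoters. TGACG was also frequent in other lists, in 61.5% of heat shock promoters, 52.4% of those of cholesterol and fatty acid synthesis and 52.2% of those of the unfolded protein response. TGACGTCA was found for Dusp1, Ier2, Jund, Maff and Plk2. Nr4a1, Egr1 and Il6 (a gene of the cytokine list) are shown for the arrangements met here, several cores, cores beside serum response elements, and a full element. The 250 bases before the start are printed in the direction of the gene, and capitals mark the motifs (TGACG, or CGTCA where it lies on the opposite strand, the full TGACGTCA in Il6, and the serum response elements of Egr1).
Nr4a1 (chr7:134259888-134260137, plus strand): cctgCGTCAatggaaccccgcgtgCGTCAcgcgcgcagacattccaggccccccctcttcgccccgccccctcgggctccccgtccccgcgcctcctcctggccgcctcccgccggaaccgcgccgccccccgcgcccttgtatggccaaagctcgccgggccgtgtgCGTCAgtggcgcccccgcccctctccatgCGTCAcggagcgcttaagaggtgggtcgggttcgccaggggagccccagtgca
Egr1 (chr18:26736828-26737077, plus strand): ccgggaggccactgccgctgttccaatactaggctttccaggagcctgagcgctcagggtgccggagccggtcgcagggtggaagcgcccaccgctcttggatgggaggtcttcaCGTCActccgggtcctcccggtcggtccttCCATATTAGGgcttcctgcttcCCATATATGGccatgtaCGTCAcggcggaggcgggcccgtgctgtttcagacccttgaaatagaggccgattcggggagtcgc
Il6 (chr4:5894576-5894825, minus strand): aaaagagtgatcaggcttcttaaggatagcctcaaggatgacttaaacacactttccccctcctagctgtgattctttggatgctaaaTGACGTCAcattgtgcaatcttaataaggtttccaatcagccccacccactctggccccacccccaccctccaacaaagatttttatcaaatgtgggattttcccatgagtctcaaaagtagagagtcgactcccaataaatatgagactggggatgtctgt
The 4 cores of the Nr4a1 window begin at -246, -226, -82 and -53, where -1 is the base before the start. In Egr1 the serum response elements begin at -105 and -83 and the cores at -135 and -66. The element of Il6 begins at -162. Among the 12 higher genes, 11 of which had a promoter in the table, Fmo5, Zmym6, Adamts1 and Nr4a1 held TGACG (36.4%) and none held the full element. None of the 11 promoters of the 12 lower genes held TGACG. A match is a string of letters and was not tested as a site.

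Nr4a1, an orphan nuclear receptor that cyclic AMP induces, measured 7.22 and 8.42 with vehicle, 9.44 and 8.19 with dDAVP and 9.12 and 8.86 after withdrawal, a difference of 1.17 ± 0.51 (2.25-fold, 95% interval -0.06 to 2.40). It was above both vehicle arrays after withdrawal, but dDAVP replicate 1 was higher still. Egr1, a zinc finger factor with the 2 serum response elements above, measured 8.69 and 8.89, 9.74 and 8.49 and 9.09 and 8.997, so withdrawal stood slightly above vehicle and between the dDAVP arrays. Csrnp1 and Jund had the tightest separation. Csrnp1, a nuclear protein, measured 7.09 and 7.18 and 7.39 and 7.46, a difference of 0.29 ± 0.09 (unadjusted p = 0.0217), and Jund, a subunit of AP-1, 9.29 and 9.23 and 9.68 and 9.495, a difference of 0.33 ± 0.12. Fos (AP-1) measured 8.02 and 8.19 and 8.12 and 9.17, so that withdrawal replicate 2 alone was high. Atf3 and Junb, stress and AP-1 factors, differed by 0.58 ± 0.38 and 0.55 ± 0.32, Myc, a growth regulator, by 0.83 ± 0.41 and Jun by 0.24 ± 0.20. In Atf3, Junb and Myc vehicle replicate 2 was closer to withdrawal replicate 1 than to vehicle replicate 1. Ptgs2, the inducible cyclooxygenase of the medullary interstitium, showed the same array by array: 9.47 and 11.06 with vehicle, 11.92 and 10.04 with dDAVP and 10.96 and 11.74 after withdrawal. Its groups overlapped and its difference of 1.09 ± 0.74 was smaller than the spread between the vehicle arrays. Crem, whose inducible form is a product of cyclic AMP signalling, overlapped too, at 0.43 ± 0.41. Dusp2, a phosphatase of lymphocytes and other cells, was the lowest of the list at -0.85 ± 0.54, with its vehicle arrays far apart at 10.66 and 9.16.

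Cytokine, chemokine and acute phase genes also had a large share of members above vehicle without overlap, 51.1% against 17.6% of all genes. Of 47 measured, 37 were above 0 and 10 below, with a median of 0.14 (0.13 after loess). Without overlap, 24 were above vehicle and 2 below; after loess 21 and 2, against 16.1% and 16% of all genes. Both withdrawal arrays were above all 4 other arrays for 16 of the 47, and for 14.7% of all genes. At an unadjusted p under 0.05 there were 7 higher and 1 lower, against 0.642% and 1.14% of all genes. The median kept near its value when any single array was left out, at 0.14 to 0.18. Summed over the list, intensity was 20207 and 29032 with vehicle, 31301 and 18761 with dDAVP, and 27188 and 30923 after withdrawal. By this sum withdrawal replicate 1 lay below vehicle replicate 2, and dDAVP replicate 1 was highest.

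Members with small p included genes of the acute phase and of granulocyte production. Beside Csf3, Cebpb and Cebpd, transcription factors of acute phase genes, measured 9.01 and 9.48 against 9.77 and 9.81 and 8.13 and 7.94 against 8.27 and 8.43, differences of 0.55 ± 0.18 and 0.32 ± 0.11. C3, the central complement component, measured 6.93 and 6.97 with vehicle, 6.87 and 6.79 with dDAVP and 7.21 and 7.26 after withdrawal, a difference of 0.29 ± 0.09 (unadjusted p = 0.0175). Fgb, fibrinogen beta, differed by 0.22 ± 0.09. In all of these genes both withdrawal arrays were above the other 4. C3 and Fgb were among the 4723 dimmest genes, of which 27.3% lay above vehicle without overlap. After loess C3 and Fgb differed by 0.25 and 0.16, still without overlap. Cxcl13, which attracts B cells, went the other way: it measured 7.13 and 7.22 with vehicle, 6.57 and 6.58 with dDAVP and 6.79 and 6.76 after withdrawal. Withdrawal minus vehicle was -0.40 ± 0.09, and the dDAVP arrays were lower still.

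Il6 and Il11, named after their values were seen, were far higher on withdrawal replicate 2 than on any other array. Il6 (interleukin-6) measured 6.60 and 6.93 with vehicle, 6.68 and 6.46 with dDAVP and 6.99 and 9.37 after withdrawal. Il11 (interleukin-11) measured 7.17 and 7.15, 7.44 and 7.19 and 7.38 and 9.03. For both, withdrawal replicate 1 was close to the vehicle arrays, and the differences of 1.41 ± 0.69 and 1.05 ± 0.48 had 95% intervals of -0.26 to 3.09 and -0.12 to 2.22. Ccl7, a monocyte chemokine, was instead low on vehicle replicate 1 and dDAVP replicate 2 alone, at 8.29 and 10.98, 11.47 and 8.55 and 11.11 and 11.53. Serpina3n, an acute phase protease inhibitor, measured 9.65 and 11.73, 11.98 and 9.38 and 9.71 and 9.98, so that both withdrawal arrays resembled vehicle replicate 1.

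**Figure D4:**
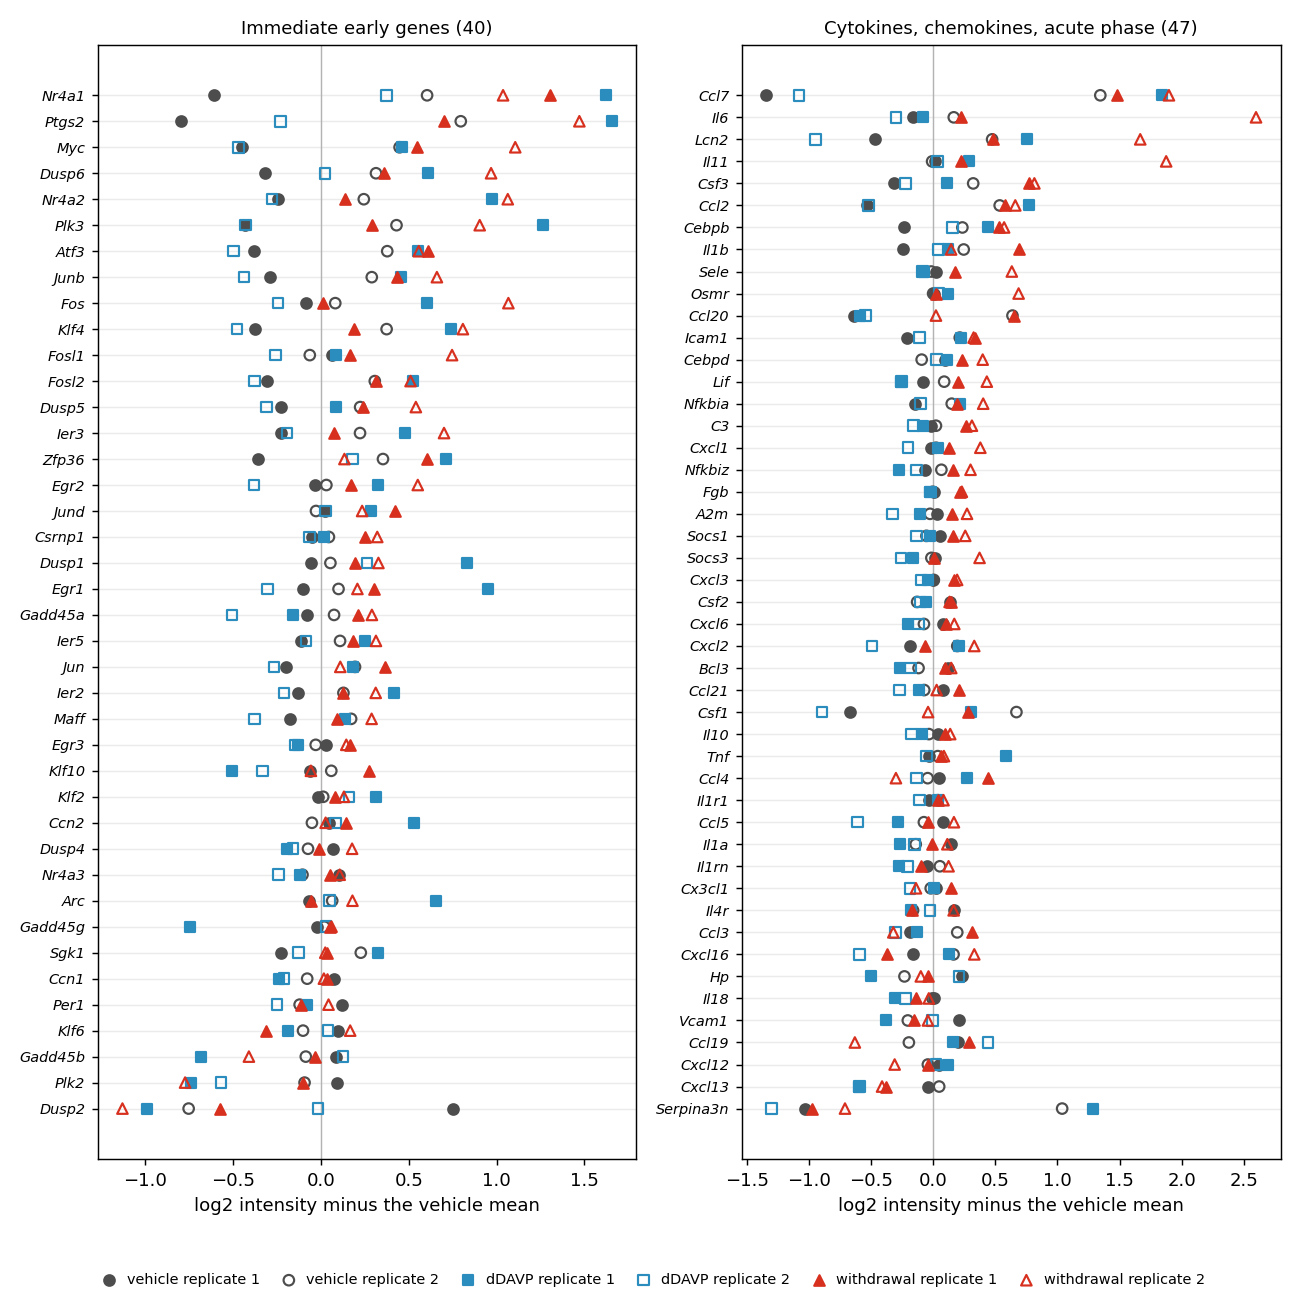
Log2 intensity minus the vehicle mean (x axis) on each array for the 40 immediate early genes and the 47 cytokine, chemokine and acute phase genes (y axis), sorted by the difference. Circles are vehicle, squares dDAVP and triangles withdrawal, filled for replicate 1 and open for replicate 2. Among early genes the filled circle and the open square lie to the left in many rows, whereas Csf3, Cebpb, C3 and Fgb have both triangles to the right of all other symbols.

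Matrix and injury genes held the single largest difference. Mmp3, the matrix protease stromelysin-1, measured 6.36 and 7.64 with vehicle, 8.29 and 6.43 with dDAVP and 7.85 and 11.77 after withdrawal, a difference of 2.81 ± 1.29 (95% interval -0.32 to 5.93). Withdrawal replicate 2 was far above the others, and dDAVP replicate 1 came next. Mmp13, a collagenase, had the same order at its top, with 6.74 and 7.07, 8.09 and 6.69 and 7.03 and 9.71. Mmp12, the macrophage elastase, was small but even, at 6.62 and 6.78, 6.59 and 6.35 and 7.19 and 7.13, a difference of 0.46 ± 0.12 (unadjusted p = 0.00825), with both withdrawal arrays above all others. Mmp14, a membrane-bound protease, differed by -0.36 ± 0.14. The 37 matrix genes together had a median of 0.09, with 7 above vehicle without overlap (18.9%, near the background of 17.6%) and 3 below (8.11%, background 13.1%).

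Of 28 genes known from kidney injury, 25 were above 0 and 3 below, with a median of 0.23 (0.21 after loess). Without overlap 10 were above vehicle (35.7%, background 17.6%) and 1 below (3.57%, background 13.1%), and 12 and 1 after loess, against 16.1% and 16% of all genes. The median was 0.13 without vehicle replicate 1 and 0.15 without withdrawal replicate 2, and only -0.01 for withdrawal replicate 1 against vehicle replicate 2. Havcr1, the injury molecule KIM-1, differed by 0.28 ± 0.11 at a dim signal, and Clu (clusterin) by 0.29 ± 0.13. Lcn2, the iron-binding protein lipocalin-2, measured 8.81 and 9.76 with vehicle, 10.04 and 8.34 with dDAVP and 9.77 and 10.96 after withdrawal, so that vehicle replicate 2 and withdrawal replicate 1 were nearly equal. Tff3, a trefoil peptide, was lower after withdrawal, with a difference of -0.52 ± 0.22, and both withdrawal arrays were below all others.

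Interferon response genes were higher on withdrawal replicate 2 than on withdrawal replicate 1 at their median. The median of 48 genes was 0.12, with 37 above 0 and 11 below. Without overlap 8 were above vehicle (16.7%, background 17.6%) and 4 below (8.33%, background 13.1%). After loess 12 were above and 4 below, against 16.1% and 16% of all genes. Against the vehicle replicates the median was 0.02 and -0.08 for withdrawal replicate 1, and 0.30 and 0.23 for withdrawal replicate 2. Without withdrawal replicate 2 it was -0.04, and without withdrawal replicate 1 it was 0.27. Their summed intensity was 63277 and 64019 on the vehicle arrays, 50427 and 55259 on the dDAVP arrays, and 60941 and 79788 on the withdrawal arrays. Withdrawal replicate 1 was just below the vehicle arrays and withdrawal replicate 2 above every other array. Oasl, a member of the oligoadenylate synthetase family, was among the 8 genes above vehicle without overlap, at 8.80 and 9.33, 8.65 and 8.78 and 9.60 and 9.65, a difference of 0.56 ± 0.18 (unadjusted p = 0.019). Both withdrawal arrays exceeded all 4 others for each of the 8 (16.7% of the list), and for 14.7% of all genes. Another of the 8 was Usp18, a protease that removes ISG15, at 0.32 ± 0.14. Isg15 itself measured 11.59 and 11.75 and 11.61 and 12.36, Ifit3 10.60 and 10.98 and 10.78 and 11.89, Isg20 8.54 and 8.91 and 8.83 and 9.86, and Irf7 differed by 0.22 ± 0.15 and Irf1 by 0.07 ± 0.13. The core of the interferon-stimulated response element stood in 63.2% of the 38 promoters found for this list, against 3.54% of the promoters of genes tested and 3.92% of all promoters.

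DNA replication and mitosis genes had the largest median, 0.37 over 43 genes (0.37 after loess), with 41 above 0 and 2 below. Without overlap 17 were above vehicle (39.5%, background 17.6%) and 0 below, and 13 and 0 after loess. Both withdrawal arrays were above all 4 other arrays for the 17, and for 14.7% of all genes. The size of the median depended on vehicle replicate 1. Against that array the medians were 0.77 and 0.66, and against vehicle replicate 2 they were 0.08 and 0.01. Leaving out vehicle replicate 1 gave 0.05, with 30 genes above 0 and 13 below, and leaving out vehicle replicate 2 gave 0.69. Cdk1, the kinase that starts mitosis, measured 7.37 and 9.25 with vehicle, 8.91 and 7.26 with dDAVP and 9.54 and 9.56 after withdrawal, and Top2a, the topoisomerase of dividing cells, 7.07 and 9.03, 8.60 and 6.83 and 9.28 and 8.86. Both genes were low on vehicle replicate 1 and dDAVP replicate 2 and high on the other 4 arrays. Mcm10, a replication factor, was dim but separated at 0.27 ± 0.10, Ccne2 (cyclin E2) at 0.37 ± 0.16 and Kif23, a kinesin of cell division, at 0.56 ± 0.27.

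The same arrays set most of the widest gaps in the table. After Mmp3 the largest positive differences were Mest (an imprinted gene of the hydrolase family), Car15 (a carbonic anhydrase) and Guca2b (uroguanylin), named after their values were seen. Mest measured 5.47 and 9.97 with vehicle, 11.10 and 5.66 with dDAVP and 10.26 and 10.34 after withdrawal. Car15 measured 6.55 and 10.62, 9.75 and 6.43 and 11.15 and 10.74, and Guca2b 6.28 and 9.23, 8.84 and 6.49 and 9.49 and 10.10. In all 3 genes vehicle replicate 1 and dDAVP replicate 2 were the lowest arrays, and withdrawal lay nearer to vehicle replicate 2 than to vehicle replicate 1. On the other side Inmt, a methyltransferase, had the largest negative difference at -1.44 ± 0.64 and measured 11.37 and 10.43, 9.61 and 11.48 and 9.06 and 9.86. Spink13, a protease inhibitor, and Slc16a4, a monocarboxylate carrier, were likewise high on vehicle replicate 1 and dDAVP replicate 2, at 9.11 and 6.83 and 9.13 and 8.04 with vehicle and 6.63 and 8.93 and 7.44 and 9.26 with dDAVP.

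Endothelial markers were lower after withdrawal as a group. All 17 measured had a difference below 0 (16 of 17 after loess), against 40.5% of all genes, with a median of -0.27. Without overlap 8 were below vehicle and 0 above (7 and 0 after loess), where the background was 13.1% and 16%. At an unadjusted p under 0.05 there were 4 lower and 0 higher, against 1.14% and 0.642% of all genes. For 4 members both withdrawal arrays were below all others, as for 3.89% of all genes. The size rested partly on vehicle replicate 1: without it the median was -0.07, with 11 below 0 and 6 above, and it was -0.16 without withdrawal replicate 2. Summed over the list, intensity was 17544 and 14456 with vehicle, 14331 and 17620 with dDAVP, and 14010 and 12124 after withdrawal, so that withdrawal replicate 1 was only just below vehicle replicate 2. The part of this shift in the other results was not tested.

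Erg, an ETS factor of endothelial identity, measured 10.24 and 9.54 with vehicle, 9.27 and 9.62 with dDAVP and 9.02 and 8.96 after withdrawal, a difference of -0.90 ± 0.24 (95% interval -1.48 to -0.32). Tek, the angiopoietin receptor Tie2, measured 11.04 and 10.65, 10.64 and 11.09 and 10.38 and 10.25, a difference of -0.54 ± 0.19. Pecam1, the junction protein CD31, measured 10.26 and 10.18 and 10.07 and 9.70, a difference of -0.34 ± 0.14. In these genes and in Slc14a1, which also belongs to this list, withdrawal was the lowest group. Other defining markers did not separate: Kdr, the VEGF receptor 2, differed by -0.01 ± 0.14 (95% interval -0.33 to 0.32), and Cldn5, the claudin of endothelial junctions, measured 11 and 10.09 with vehicle and 10.57 and 9.56 after withdrawal.

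Lymphocyte markers did not share a direction across arrays. Of 19 measured, 13 were below 0 and 6 above, with a median of -0.17, and 4 were lower at an unadjusted p under 0.05, against 1.14% of all genes. Without overlap 4 were below vehicle (21.1%, background 13.1%) and 1 above. The median was -0.44 and -0.35 against vehicle replicate 1, and 0.01 and 0.09 against vehicle replicate 2. The 4 lower members are chains or surface proteins of T cells, and no list of T cell genes alone was made. Cd3g, a chain of the T cell receptor complex, measured 9.30 and 8.57 with vehicle, 7.97 and 8.55 with dDAVP and 7.36 and 8.21 after withdrawal, a difference of -1.15 ± 0.37 (95% interval -2.04 to -0.25). Cd3e, another chain, Cd8a, the coreceptor of cytotoxic T cells, and Cd2 differed by -0.48 ± 0.19, -0.47 ± 0.17 and -0.36 ± 0.14. Withdrawal was below both vehicle arrays in these 4 genes, and dDAVP replicate 1 lay between the withdrawal arrays. The list as a whole followed vehicle replicate 1, which had the highest summed intensity (5626, against 3649 to 4735 on the other arrays). Vehicle replicate 2 was at 4029, between withdrawal replicates 1 and 2 at 3707 and 4735. Without vehicle replicate 1 the median was -0.01, and without vehicle replicate 2 it was -0.40.

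**Figure D5:**
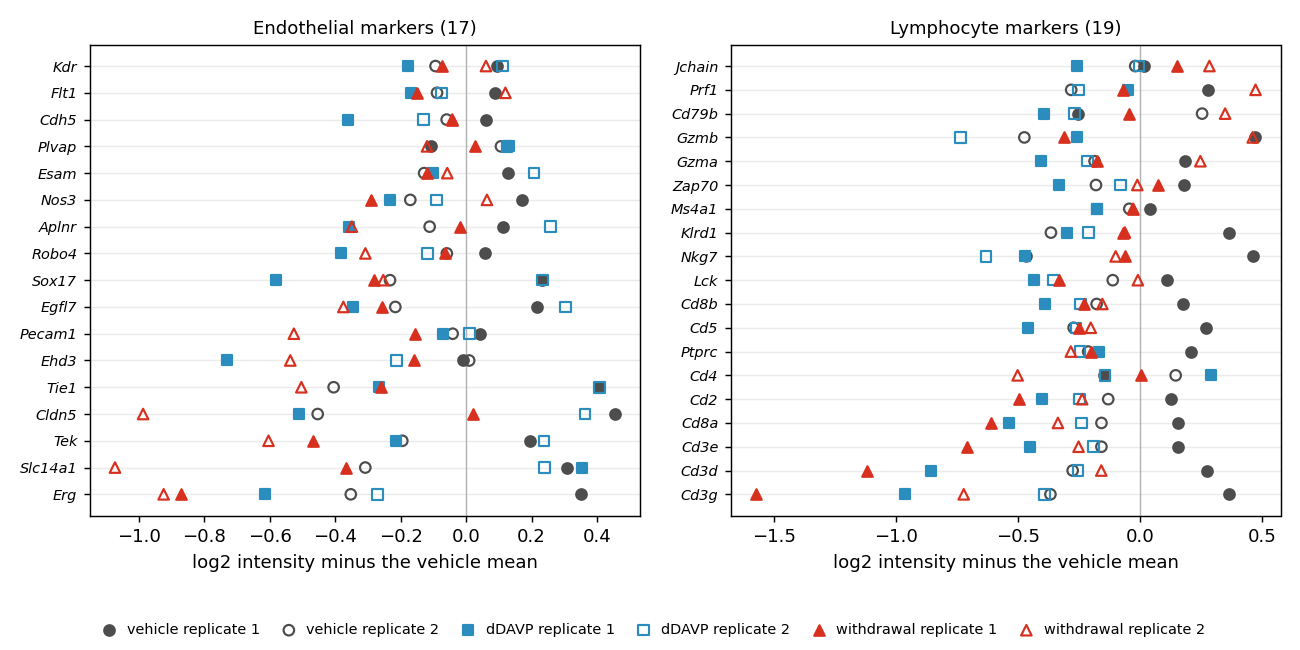
Log2 intensity minus the vehicle mean (x axis) on each array for 17 endothelial and 19 lymphocyte markers (y axis), sorted by the difference. Circles are vehicle, squares dDAVP and triangles withdrawal, filled for replicate 1 and open for replicate 2. Erg and Tek have both triangles to the left of all other symbols, and the filled circle of vehicle replicate 1 lies to the right in most rows of both panels.

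Markers of other cells were given the same way. Proximal tubule markers, which the inner medulla should hold little of, had 17 of 23 members below 0, with a median of -0.07. Without overlap 10 were below vehicle (43.5%, background 13.1%), and 12 after loess, where the background was 16%. Their summed intensity was 6720 and 5681 with vehicle, 4696 and 6800 with dDAVP, and 5011 and 4813 after withdrawal, with both withdrawal arrays below both vehicle arrays. They were low on the arrays on which the oxidative enzymes and amino acid carriers among the 12 lower genes were low, and their part in that result was not tested. Hao2 belongs to both sets, and the 12 were picked for being low on the withdrawal arrays. Slc7a13, an amino acid carrier of the late proximal tubule, measured 10.69 and 10.15, 9.49 and 10.75 and 9.66 and 9.19. Macrophage and monocyte markers had a median of -0.11 over 17 genes. Without overlap 3 were below vehicle (17.6%, background 13.1%) and 0 above (background 17.6%). Laptm5, a lysosomal protein of blood cells, differed by -0.32 ± 0.12. Ccl6, a myeloid chemokine, measured 9.73 and 8.93, 8.49 and 8.95 and 8.51 and 8.29. Neutrophil and mast cell markers had a median of 0.06 over 15 genes but 0.01 after loess. S100a9, a calgranulin of neutrophils, was the clearest of them at 7.07 and 7.21 and 7.42 and 7.82, a difference of 0.48 ± 0.18, above all other arrays. Principal cell markers had a median of 0.08 over 15 genes. Without overlap 2 were above vehicle (13.3%, background 17.6%) and 0 below (background 13.1%). The 2 above were St6gal1 at 0.34 ± 0.16 and Krt8 at 0.31 ± 0.16. Intercalated cell markers had a median of 0.06 over 16 genes, but their medians between single arrays ran from -0.57 (withdrawal replicate 2 against vehicle replicate 2) to 0.75 (withdrawal replicate 1 against vehicle replicate 1). Bsnd, the chloride channel subunit barttin, measured 10.95 and 11.003 with vehicle, 11.09 and 10.97 with dDAVP and 10.71 and 10.62 after withdrawal, a difference of -0.31 ± 0.10 (unadjusted p = 0.0165) with withdrawal below all others.

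Clock genes and ubiquitin ligases each had medians near 0. Of 18 clock genes 3 were above vehicle without overlap and 5 below (16.7% and 27.8%, against 17.6% and 13.1% of all genes), with a median of 0.01. Cry2, a repressor of the clock, measured 8.72 and 8.63, 8.83 and 9.01 and 8.48 and 8.13, and Tef, a clock output factor, 8.90 and 8.52, 8.54 and 8.72 and 8.37 and 8.29. Both were lowest after withdrawal, with differences from vehicle of -0.37 ± 0.14 and -0.38 ± 0.15. Nfil3, which represses the same sites as Tef, differed by 0.42 ± 0.21 and Nr1d1 (REV-ERB alpha) by -0.42 ± 0.22, although the groups of Nr1d1 overlapped after loess. The labels used here give no hour of collection, and its part in these values was not tested. Of the 90 ubiquitin ligases measured out of 120 listed, 13 were above vehicle without overlap and 19 below (14.4% and 21.1%), with a median of -0.01. Pja2, a ligase that degrades regulatory subunits of protein kinase A, measured 11.16 and 10.90, 10.88 and 10.90 and 10.69 and 10.65, a difference of -0.36 ± 0.11 (unadjusted p = 0.0183), with withdrawal below all other arrays. Itch, which is related to Nedd4, differed by -0.26 ± 0.09 and was also lowest after withdrawal, while Nedd4l, Rnf40 and Mylip differed by -0.02 ± 0.15, 0.09 ± 0.10 and -0.13 ± 0.13.

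The further lists had medians between -0.07 and 0.14, and several held separated genes. Heat shock proteins had a median of 0.02 over 32 genes, glycolysis and hypoxia genes -0.02 over 36, NRF2 targets and metallothioneins 0.02 over 29, cholesterol and fatty acid synthesis 0.04 over 26, prostaglandin genes 0.02 over 22 and potassium channels 0.08 over 24. Genes of the unfolded protein response had a median of 0.14 over 25 genes. Without overlap 4 were above vehicle (16%, background 17.6%) and 1 below (4%, background 13.1%). Among them Ddit3, the stress factor CHOP, measured 9.98 and 10.69 and 10.68 and 10.97, with vehicle replicate 2 and withdrawal replicate 1 nearly equal. Glucocorticoid-responsive genes had a median of 0.07 over 26 genes. Fkbp5 and Tsc22d3, both induced by glucocorticoid, differed by -0.20 ± 0.20 and 0.07 ± 0.25, and Per1 by -0.03 ± 0.13. Bcl6, a repressor, was lower at -0.37 ± 0.14. Of the prostaglandin genes, Tbxa2r and Tbxas1, the thromboxane receptor and synthase, differed by 0.27 ± 0.10 and 0.25 ± 0.11, above all other arrays. Vegfa, the endothelial growth factor, measured 7.84 and 8.01 with vehicle, 8.20 and 8.08 with dDAVP and 8.21 and 8.11 after withdrawal, above vehicle and level with dDAVP. Hspb1 and Hspb6, small heat shock proteins, differed by -0.26 ± 0.13 and -0.43 ± 0.19. The remaining marker lists had medians of 0.11 over 12 genes (smooth muscle and pericytes), 0.11 over 11 (papillary surface and urothelium), 0.10 over 14 (thick ascending limb and distal tubule), 0.05 over 11 (adipocytes), 0.05 over 7 (erythroid cells), 0.02 over 15 (interstitial cells and fibroblasts) and -0.05 over 9 (thin limbs), and antigen presentation genes one of -0.07 over 16. Of the papillary surface and urothelial markers 5 lay above vehicle without overlap (45.5%, background 17.6%) and 0 below. The 5 were above all 4 other arrays too, as were 14.7% of all genes. After loess 4 of these markers lay above and 0 below, against 16.1% and 16% of all genes. Smooth muscle and pericyte markers had 5 above (41.7%) and 1 below, prostaglandin genes 5 (22.7%) and 1, and glucocorticoid-responsive genes 6 (23.1%) and 4 (15.4%). Of the erythroid markers 0 lay above and 3 below (42.9%, background 13.1%). Potassium channels had 5 above (20.8%) and 1 below (4 and 1 after loess), and thick ascending limb and distal tubule markers 3 and 3. Each other list among these had at most 5 members separated in either direction, and none of these members passed the test.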

How the data were processed

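Inner medulla RNA was measured on 6 Affymetrix whole-transcript arrays, 2 per group. Per the submitters' processing notes, RMA made 1 value per probe set. The authors deposited linear intensities, from 30.2 to 10778.7. The sources used here state no RMA version and no build. Detection calls and scan batches were not used here. RMA equalises arrays, which reduces a change shared by most genes. The log2 of each value was taken. Of 28524 probe sets, 14947 carried 1 symbol, 318 several and 13259 none, and the brightest probe set of a symbol gave 14168 genes. RefSeq (GRCr8) matched the Entrez numbers of 14916 probe sets and changed 0 symbols. limma 3.58.1 in R 4.3.3 fitted 1 mean per group to all 6 arrays (3 residual and 3.21 prior degrees of freedom). Tests were two-sided, with Benjamini-Hochberg adjustment over 14168 genes, and were tested on simulated data. The 35 lists (21 of function, 14 of cell type markers), the genes and the tests were chosen with earlier results of these data known, and lists were described without a test. Genes were named by a rule: the 12 higher and 12 lower genes above, a set of transport and response genes, the 3 members of each list with the smallest p, and the 5 brightest vehicle genes. Mmp3, Mmp13, Il6, Il11, Lcn2, Cebpb, Fgb, Ccl7, Serpina3n, Dusp2, Cd3e, Pecam1, Kdr, Cldn5, Nr1d1, Mest, Car15, Guca2b, Inmt, Spink13 and Slc16a4 were chosen after their values were seen. Alternatives covered normalization, dim genes, the arrays and probe sets used, the variance prior, a replicate block and leaving out arrays.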

Additional observations from a re-analysis of the deposited data

How the results depend on the processing

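No gene passed at an adjusted p under 0.05 by limma in any setting run (smallest adjusted p 0.269, without withdrawal replicate 1). The 253 genes at an unadjusted p under 0.05 became 161 without the dimmest 25% of genes, 411 with only the vehicle and withdrawal arrays and 128 with a replicate block, and 117 to 665 when single arrays were left out. Fitting a trend of the variance on the level turned the split from 91 higher and 162 lower to 191 and 112. The 30 genes that were also 1.5-fold apart became 68 with only the vehicle and withdrawal arrays and 14 to 220 when single arrays were left out. The 4343 genes without overlap became 9706 without vehicle replicate 1 and dDAVP replicate 2 and 4345 to 10103 without single arrays, since fewer arrays separate more easily. The cytokine median was 0.21 without the dimmest 25% of genes, and the mitosis median 0.053 to 0.69 without single arrays. The medians of the early gene, cytokine and endothelial lists kept their sign in every setting. Cyclic loess, array medians and quantile normalization kept the 253 genes within 1.5 times, at 264 to 315. By level loess moved more: the share of dim genes without overlap went from 27.3% to 17.3% above vehicle and from 3.83% to 16.3% below, and that of bright genes above from 9.25% to 15.5%. The replicate numbers do not pair the arrays: deviations of arrays with the same number correlated at -0.00206 between vehicle and withdrawal, -0.623 between vehicle and dDAVP and -0.111 between dDAVP and withdrawal. Of the 126 genes named, 20 changed sign in some setting. Their ranges over leaving out single arrays were, in log2, Akr1b1 -0.12 to 0.029, Aqp2 -0.057 to 0.037, Aqp4 -0.17 to 0.43, Cldn5 -0.99 to 0.020, Fkbp5 -0.51 to 0.11, Ifit3 -0.014 to 1.10, Irf1 -0.079 to 0.22, Isg15 -0.057 to 0.70, Kdr -0.10 to 0.086, Ldha -0.11 to 0.0093, Mt2A -0.016 to 0.14, Nedd4l -0.15 to 0.12, Per1 -0.15 to 0.085, S100a10 -0.10 to 0.14, Scnn1a -0.29 to 0.12, Scnn1b -0.036 to 0.20, Serpina3n -1.88 to 0.19, Sgk1 -0.20 to 0.26, Slc14a2 -0.14 to 0.62, Slc5a3 -0.0077 to 0.52. Without vehicle replicate 1 and dDAVP replicate 2 together the values were -0.17 for Aqp4, -0.0065 for Irf1, 0.086 for Kdr, -0.014 for Mt2A, 0.085 for Per1, -0.10 for S100a10, -0.20 for Sgk1, -0.14 for Slc14a2 and -0.0077 for Slc5a3. Kdr was at 0.0011 after loess and 0.0078 after quantile normalization. The cause of these moves was not tested. With 2 arrays a group the number of arrays limits the precision, and an exact test of 2 against 2 cannot go below p = 0.333.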
